A study of Homo sapiens with 2 samples.

Results

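The genes described here carry the symbols of mitochondrial ribosomal proteins. The data are the peaks listed at them in an anti-MYC ChIP-seq experiment in CAL27 cells carrying myc-tagged KLF7. A peak was taken as a member when its gene entry named a symbol beginning MRPL or MRPS followed by digits and at most 1 letter, or DAP3, and symbols of pseudogenes were left out. This gave 7 of the 1900 peaks in the deposited table, at 7 different genes: MRPL3, MRPL11, MRPL18, MRPL20, MRPL40, MRPS16 and MRPS27. GENCODE v44 holds 79 protein-coding genes of the family, so that 72 of them had no entry. CAL27 is an established line from a carcinoma of the tongue. The cells had been infected with lentivirus carrying myc-tagged KLF7, a zinc finger transcription factor, and fixed with formaldehyde. Their sheared chromatin gave 1 library precipitated with an anti-MYC antibody (D3N8F) and 1 input library without antibody. Both groups therefore share the line, the virus and the tagged protein, there was no replicate of either, and cells without the transgene were not analysed here. At none of these peaks can fragments precipitated through myc-KLF7 therefore be told apart from those precipitated through the MYC protein of the cells themselves. Each p or q below compares these 2 libraries only.

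The mitochondrial ribosome translates the few messages encoded by mitochondrial DNA, all of which specify subunits of the respiratory chain or of ATP synthase. Its RNA is made inside the organelle, whereas all of its proteins are encoded in the nucleus, translated in the cytosol and imported. Genes named MRPL mostly encode proteins of the large subunit, which holds the peptidyl transferase centre, and genes named MRPS mostly encode proteins of the small subunit, which decodes the message. MYC and its partners bind the E-box CACGTG, and KLF and SP factors bind GC-rich sequences such as GGGGCGGGG, the GC box.

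The sequences at or near the summits, the positions of highest fragment coverage, are shown first because the member peaks differed in which of these words they held. Words were searched on both strands within 100 bp of the summit. The word CACGTG reads the same on both strands, and GGGCGG is the core contained in GGGGCGGGG. Each sequence is taken from GRCh38 and is written 5′ to 3′ on the strand of the family gene. Capitals mark CACGTG at MRPL3, CACGTG followed by the reverse complement of GGGCGG at MRPL18, GGGGCGGGG at MRPL40, GGGCGG at MRPS16, and CCGGAAG, a word bound by ETS factors, at MRPL20. At MRPL11 and MRPS27 none of these words lay within 50 bp of the summit, and the single capital marks the summit base. Windows are limited to 30 bases where the entry or the summit concerns a transcribed leader, and otherwise reach 50 bp to each side of the summit. The MRPS16 window is centred on its word, 58.5 bp from the summit, and does not contain the summit.
MRPL3, chr3:131502888-131502917, minus strand: ggctactgcgtcCACGTGgcggtggcgtgg
MRPL18, chr6:159789055-159789155, plus strand: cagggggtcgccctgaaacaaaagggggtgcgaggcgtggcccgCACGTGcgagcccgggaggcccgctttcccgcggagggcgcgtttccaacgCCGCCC
MRPL40, chr22:19432409-19432438, plus strand: ggctgcgtcgGGGGCGGGGacaggcgcgtc
MRPS16, chr10:73252422-73252451, minus strand: gcgagacgttccGGGCGGtcacggggctcg
MRPL20, chr1:1407317-1407417, minus strand: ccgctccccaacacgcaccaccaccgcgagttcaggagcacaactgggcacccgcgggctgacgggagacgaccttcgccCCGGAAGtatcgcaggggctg
MRPL11, chr11:66443872-66443972, minus strand: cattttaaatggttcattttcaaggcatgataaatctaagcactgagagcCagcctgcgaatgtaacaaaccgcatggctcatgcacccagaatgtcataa
MRPS27, chr5:72308567-72308667, minus strand: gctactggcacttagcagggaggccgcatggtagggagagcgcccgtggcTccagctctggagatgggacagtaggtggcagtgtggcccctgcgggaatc

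To find how much of the family was marked, the share of its genes with a peak was set beside the share of all protein-coding genes. A peak entry was present for 7 of the 79 family genes (8.86%, 95% Wilson interval 4.36 to 17.2%), compared with 6.38% of 20007 protein-coding genes. A promoter entry was present for 2 of the 79 (2.53%, 0.697 to 8.77%), compared with 2.15% of the same genes. With the annotation in the table set aside, a summit lay within 1000 bp of the GENCODE gene start in 6 of the 79 (7.59%, 3.53 to 15.6%), compared with 4.26% of protein-coding genes. The share in all protein-coding genes lay within the interval of the family share on each of these counts. The intervals cover counting error over genes only.

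Of the 51 genes counted with the large subunit, 5 had an entry, and of the 28 counted with the small subunit, 2 had one. MRPS18A and MRPS30, which are proteins of the large subunit despite their symbols, were counted with the large subunit, and neither had an entry. Of 46 family genes whose products have a counterpart in bacterial ribosomes, 5 had an entry, and these were MRPL3, MRPL11, MRPL18, MRPL20 and MRPS16. Of the 33 genes counted as particular to mitochondria, MRPL40 and MRPS27 had one. DAP3, which encodes a GTP-binding protein of the small subunit, had none. Over all protein-coding genes, 6.38% had an entry. With entries at 7 family genes in all, these counts do not show a difference between the groups, and none was tested.

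**Figure D1:**
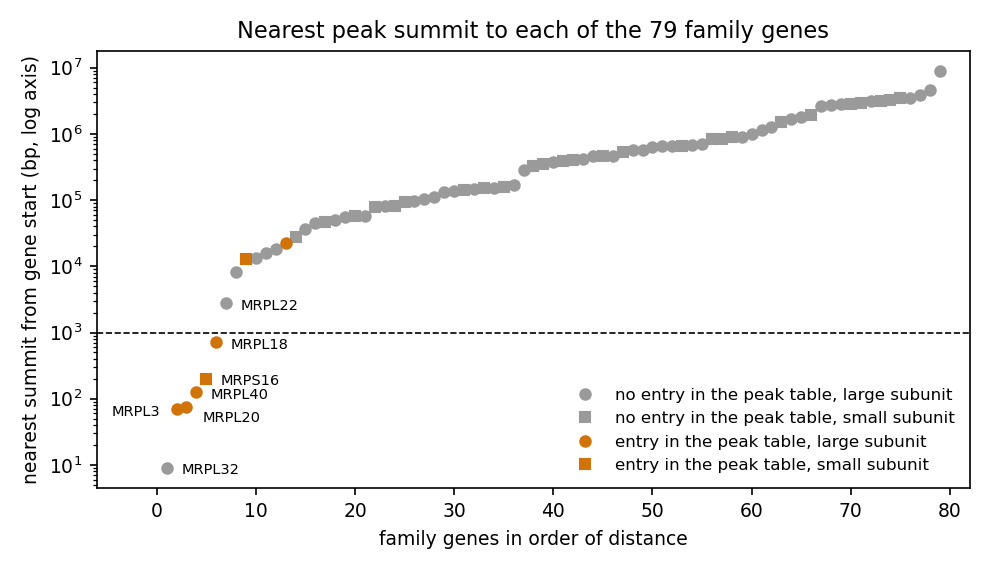
Distance in bp (log axis) from the gene start of each of the 79 family genes to the nearest peak summit, in order of distance, with circles for the large and squares for the small subunit, and orange for genes with an entry in the peak table. The 6 genes under the dashed line at 1000 bp include MRPL32, which has no entry, and 53 of the genes lie more than 100000 bp from any summit. No share of all protein-coding genes is given for that distance.

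The 72 genes without an entry had their nearest summit at a median distance of 439995 bp. A summit lay within 100000 bp of the start of 26 of all 79 family genes and within 1000000 bp of 59. The largest distance was 9029302 bp. Most family genes thus had no summit within 100000 bp of their start at the depth of these libraries. The median peak of the table had a pileup of 13 fragments at that depth. Shares of all protein-coding genes at these distances were not set beside them, so the distances cannot be called particular to the family. A family promoter that gave fewer fragments than the calling threshold required would not be listed.

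Most member peaks were of low to moderate height. The pileup, the height of ChIP fragment coverage at the summit, ranged from 9 to 25 with a median of 12, compared with medians of 13 in the 576 promoter peaks and 13 in all peaks. The peaks at MRPL18, MRPS16 and MRPS27 each had a pileup of 9 and shared rank 1762 of 1900 by pileup. The lowest pileup of any peak was 7, and the lower quartile of all peaks was 11. The fold enrichment, the ratio of pileup to local background each increased by 1, ranged from 4.81 to 8.13 with a median of 5.06. The median was 5.20 in the promoter peaks and 5.06 in all peaks. The 95% exact Poisson intervals of the 7 pileups overlapped for every pair, so the order of the weaker peaks is not resolved by the counts.

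**Figure D2:**
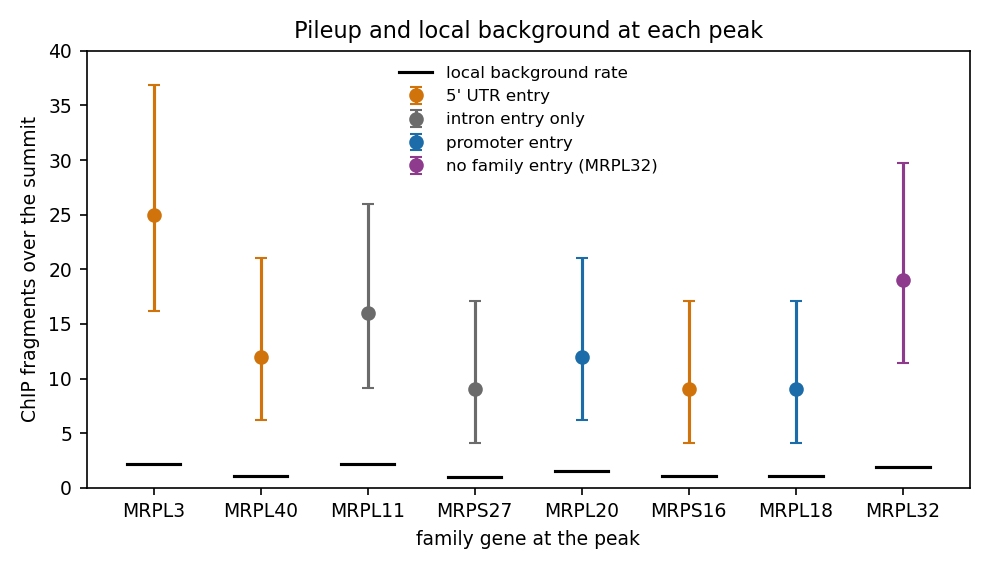
ChIP fragments over the summit at the 7 member peaks in order of fold enrichment and at the peak on the MRPL32 start, with 95% exact Poisson intervals as bars and the local background rate as black lines. Pileups run from 9 to 25 fragments over background rates of 0.976 to 2.20.

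MRPL3, which encodes a protein of the large subunit related to bacterial ribosomal protein L3, carried the highest of the family peaks. Its peak (ENSG00000114686) lay on chromosome 3 from 131502746 to 131503031, with a pileup of 25 fragments (95% exact Poisson interval 16.2 to 36.9) over a background rate of 2.20. The fold enrichment was 8.13 and the q-value 1.09e-14, and the peak ranked 110.5 of 1900 by fold enrichment, ties sharing their mean rank. The summit at 131502914 was 69 bp inside the gene start and 57 bp inside the start of the canonical transcript. In GENCODE v44 the summit falls in the first exon, in coding sequence or untranslated leader depending on the transcript. The centre of CACGTG was 11.5 bp from the summit, CCGGAAG occurred at 2 positions within 100 bp, and the peak held no GGGCGG. No other protein-coding gene with a symbol started within 100000 bp of it, and the nearest canonical start was that of NUDT16 at 121140 bp. An exon of ENSG00000248468, a gene without a symbol, also lay over the summit.

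MRPL40, a subunit protein found in mitochondrial but not bacterial ribosomes, had the next value of fold enrichment, 6.24. Its peak (ENSG00000185608) lay on chromosome 22 from 19432295 to 19432531, with a pileup of 12 (6.20 to 21.0) over a background rate of 1.08 and a q-value of 2.36e-06. The centre of GGGGCGGGG was 3.0 bp from the summit, which made MRPL40 the only 1 of the 7 peaks with this longer word within 100 bp. The deposited entry places the peak in the 5′ UTR and an exon of MRPL40, 518 bp inside a gene start at 19431902. In GENCODE v44 the gene starts at 19432545, and the summit was 125 bp upstream of it. The peak also has a promoter entry for HIRA, which encodes a histone chaperone and is read in the opposite direction. An intron entry for C22orf39 is listed as well, and in GENCODE v44 the summit lies in introns of both HIRA and C22orf39. The canonical HIRA start lay 687 bp from the summit, so the fragments cannot be assigned to any of these genes from their position.

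MRPL20, a large subunit protein with a counterpart in bacterial ribosomes, had a promoter peak close to its start. The peak (ENSG00000242485) extended over 469 bp of chromosome 1, from 1407071 to 1407539, and was the longest of the 7. Its pileup was 12 (6.20 to 21.0) over a background rate of 1.57, with a fold enrichment of 5.06 and a q-value of 0.000116. The summit was 74 bp upstream of the GENCODE start. Neither CACGTG nor GGGCGG lay within 100 bp of the summit, whereas CCGGAAG occurred at 2 positions. Promoter entries for RN7SL657P, a pseudogene of the signal recognition particle RNA, and AL391244.3 were listed at the same peak.

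MRPL18, another large subunit protein with a bacterial counterpart, had the lowest fold enrichment of the family, 4.81, at a peak that lies nearer to another gene. The peak (ENSG00000112110) covered 159788793 to 159789143 on chromosome 6, with a pileup of 9 (4.12 to 17.1) over a background rate of 1.08 and a q-value of 0.00129. Its summit was 707 bp upstream of the MRPL18 gene start and 1362 bp upstream of the canonical MRPL18 transcript. The divergent gene TCP1, which encodes a subunit of the cytosolic chaperonin, has its canonical start at 159789602, and the summit was 497 bp inside it. The table gives a TCP1 intron entry as well as the MRPL18 promoter entry, whereas in GENCODE v44 the summit falls in a TCP1 exon. The centre of CACGTG was 3.5 bp from the summit, CACGCG lay 66.5 bp and GGGCGG 47.5 bp away. These CACGCG and GGGCGG sites lay beyond the end of the peak.

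MRPS16, a small subunit protein with a bacterial counterpart, had a weak peak just inside the gene. The peak (ENSG00000182180) lay on chromosome 10 from 73252405 to 73252679, with a pileup of 9 (4.12 to 17.1) over a background rate of 1.05, a fold enrichment of 4.87 and a q-value of 0.00107. The summit was 198 bp inside the gene start and 149 bp inside the canonical start, in the untranslated leader. GGGCGG lay 58.5 bp from the summit. The non-coding gene DNAJC9-AS1 had a promoter entry at the same peak, and the nearest other protein-coding start, that of DNAJC9, was 5240 bp away.

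**Figure D3:**
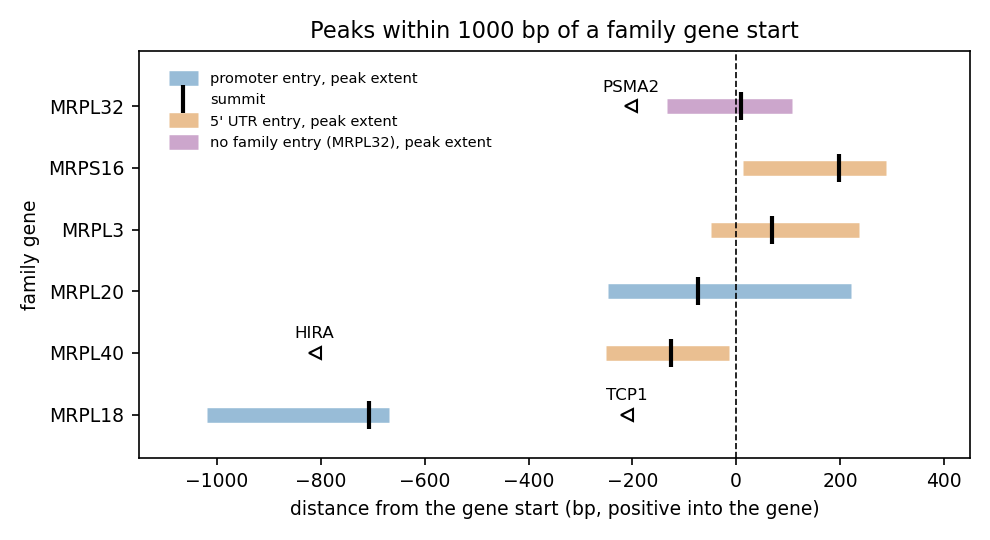
Extent (coloured bar) and summit (black bar) of the 6 peaks within 1000 bp of a family gene start, as distance in bp from the GENCODE gene start, positive into the gene. Open arrowheads mark the canonical start of a neighbouring protein-coding gene read in the opposite direction, and the MRPL18 summit at -707 bp lies beyond the TCP1 start.

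The remaining member peaks were tied to the family by intron entries only. The MRPS27 peak (ENSG00000113048) lay on chromosome 5 from 72308466 to 72308738, in a gene for a pentatricopeptide repeat protein of the small subunit. Its pileup was 9 (4.12 to 17.1) over a background rate of 0.976, with a fold enrichment of 5.06 and a q-value of 0.00061. The summit was 13100 bp inside the gene start and 11623 bp inside the canonical start, within an intron. Of the 32 MRPS27 transcripts in GENCODE v44, 5 begin less than 500 bp downstream of this summit, the nearest at 72308425, which is 192 bp away. The peak had a GC content of 63.7% and GGGCGG at 55.5 bp from its summit. The shared start of MRPS27 and PTCD2, which are divergent with 133 bp between their canonical starts, had no peak.

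The MRPL11 peak (ENSG00000174547) lay on chromosome 11 from 66443786 to 66443976 and stood apart from the others in sequence. MRPL11 encodes a protein at the base of the ribosomal stalk, where translation factors bind. The pileup was 16 (9.15 to 26.0) over a background rate of 2.14, with a fold enrichment of 5.42 and a q-value of 2.19e-06. Its GC content was 39.3%, compared with 61.3 to 75.1% in the other 6, and none of the 6 words searched was present. The intron entry can be traced to 1 of 6 MRPL11 transcripts, a non-coding one that runs to 66466738. From the canonical start at 66438848 the summit was 5074 bp upstream, outside the coding transcripts. In this peak 86.3% of the 31-base words were unique in GRCh38 and the others occurred at up to 12 places, whereas every such word was unique in the other 6 peaks.

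**Figure D4:**
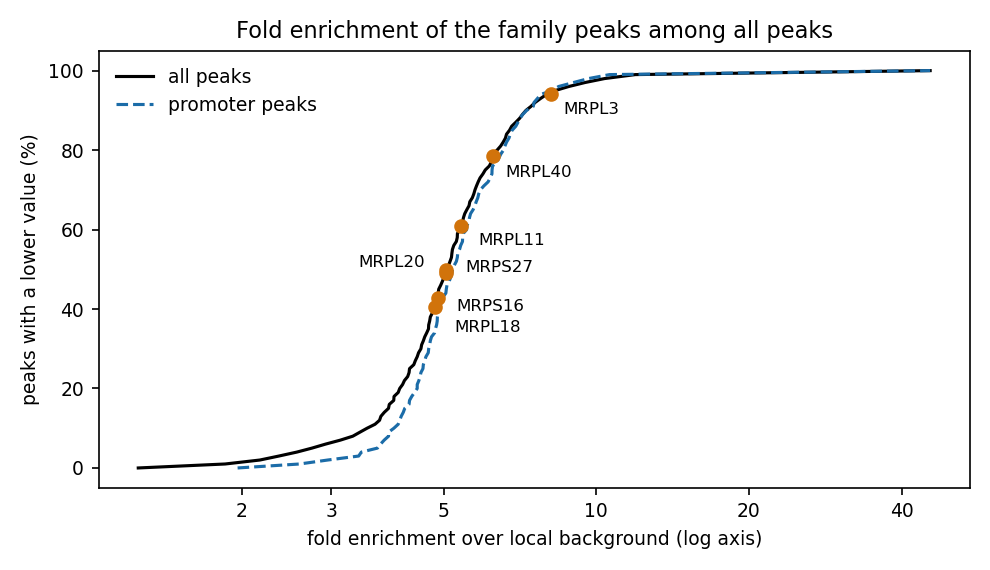
Share of peaks with a lower value (%) against fold enrichment (log axis) for all 1900 peaks (black) and the 576 promoter peaks (dashed), with the 7 member peaks as points. MRPL3 stands above 94.2% of all peaks, and MRPL18 above 40.6%.

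A peak directly on a family gene start was listed under another name. The peak on chromosome 7 from 42932243 to 42932483 has promoter entries for PSMA2, a subunit of the proteasome, and AC010132.3, but its summit was 9 bp inside the start of MRPL32, another large subunit protein with a bacterial counterpart. The canonical PSMA2 start, read in the opposite direction, was 202 bp from that of MRPL32 and 211 bp from the summit. The pileup was 19 fragments (11.4 to 29.7) over a background rate of 1.88, the fold enrichment 6.94 and the -log10 q 9.23. By fold enrichment it ranked 249 of 1900, above 6 of the 7 member peaks. GGGCGG occurred at 2 positions, the nearer 17.5 bp from the summit, and CACGTG was not found within 100 bp of it. The 30 bases on the plus strand around the nearer word, with that word in capitals, end just short of the summit and are as follows.
MRPL32, chr7:42932353-42932382: ggggcgggaccgGGGCGGtcttccagcagg

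One more family gene without an entry, MRPL22 on chromosome 5, had a summit within 5000 bp. It lay 2749 bp upstream of the MRPL22 start and belongs to the promoter of GEMIN5, a gene of small nuclear ribonucleoprotein assembly, whose start was 113 bp from the summit. The pileup was 9 and the fold enrichment 3.89, with a q-value of 0.0193.

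Of the 7 member peaks, 1, at MRPL18, had the GENCODE gene start of another protein-coding gene within 1000 bp of its summit, and none had one within 500 bp. With canonical transcript starts there were 2, at MRPL18 and MRPL40, because the HIRA gene in GENCODE v44 begins at 19447450, upstream of its canonical start. A promoter entry for another gene of any kind accompanied the family entry at 3 of the 7 peaks, for HIRA at MRPL40, for DNAJC9-AS1 at MRPS16, and for a pseudogene and AL391244.3 at MRPL20. The corresponding shares over all peaks were not computed.

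The words around the summits of the member peaks were compared with those around other summits and at gene starts. Among the 7 member peaks, 2 held CACGTG no farther than 100 bp from their summit (28.6%, 95% Wilson interval 8.22 to 64.1%). It was found in 26.8% of 571 promoter peaks and in 19.4% of all 1854 peaks on assembled chromosomes. Within 100 bp of the start it was found in 5.86% of protein-coding genes. CACGTG was chosen because an earlier report on these data had named it, so these shares are a description only. GGGCGG was present in 4 of the 7 (57.1%, 25 to 84.2%), compared with 68.1% of promoter peaks, 43.9% of all peaks and 47.0% of gene starts. GGGGCGGGG was present in 1 of the 7 (14.3%, 2.57 to 51.3%), compared with 22.2% of promoter peaks and 15.9% of gene starts. CACGCG was found in 2 of the 7, at MRPL18 and MRPL40, in 26.6% of promoter peaks and in 17.3% of all peaks. CCGGAAG was found in 2 of the 7, at MRPL3 and MRPL20 (28.6%, 8.22 to 64.1%), in 14.4% of promoter peaks and in 7.55% of all peaks. As CCGGAAG was added after the peaks were seen, its share in them is a description only. With 7 peaks these intervals are wide, and each includes the share in promoter peaks.

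At the starts of the family genes themselves, CACGTG had a share close to that in all genes. It lay within 100 bp of 5 of the 79 family starts (6.33%, 2.73 to 14%) compared with 5.86% of all protein-coding starts. Of the 6 family starts with a summit within 1000 bp, 1 held it, at MRPL3, and of the other 73 starts 4 held it without a peak near them. GGGCGG was present at 3 of the 6 starts and at 37 of the 73. CCGGAAG was present at 26 of the 79 family starts (32.9%, 23.6 to 43.9%) compared with 10.2% of all protein-coding starts, at 4 of the 6 starts with a summit and at 22 of the 73 without. In the RefSeq promoters of GRCh38.p14, which run from 250 bp before to 50 bp after the gene start, CCGGAAG was found in 29 of 70 family promoters and in 14.2% of 15843 protein-coding promoters. GCGCATGC, the core bound by NRF1, was present at 7 of the 79 family starts, compared with 3.0% of all starts, and in none of the 7 member peaks, where it occurred in 3.85% of promoter peaks. These counts describe letters in a window and not bound factors.

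Genes that act on the mitochondrial ribosome were examined in the same way. Of 15 translation factors, 3 had a peak entry (95% Wilson interval 7.05 to 45.2%), and of 25 assembly factors, 6 had one (11.5 to 43.4%), against the 6.38% of all protein-coding genes. None of the 4 ribosomal subunits with other names (AURKAIP1, CHCHD1, PTCD3 and GADD45GIP1) had an entry. These lists are short and were chosen with earlier results of these data known, and no test was made of them.

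The 9 peaks at these factors had pileups from 11 to 17 and a median fold enrichment of 5.30. The highest fold enrichment, 6.91 with a pileup of 15, was at MTERF3, which acts in ribosome assembly and mitochondrial transcription, 13 bp upstream of the gene start. MTRFR, a release factor homologue that rescues stalled ribosomes, followed with 6.04. MRRF, the ribosome recycling factor, had 5.31, and GUF1, a GTPase related to bacterial elongation factor LepA, had 5.30. Among assembly factors, the GTPase MTG1 had 5.39, and the RNA methyltransferases MRM2, TRMT61B and MRM1 had 4.84, 4.67 and 4.51. The GTPase GTPBP10 had the lowest value, 4.16, and its summit was 11487 bp inside the GENCODE gene start, whereas the other 8 summits lay within 1000 bp of their gene starts. Around these summits CACGTG was found in 2 of the 9, at MTERF3 and MRM1, and GGGCGG in 9 of 9. Within 100 bp of their summits, 26.8% of promoter peaks and 19.4% of all peaks held CACGTG. For GGGCGG these shares were 68.1% and 43.9%, and the difference was not tested.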

How the data were processed

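ChIP-seq of CAL27 cells expressing myc-KLF7 was analysed from 1 ChIP and 1 input library. The authors trimmed reads with Trimmomatic, mapped them with BWA to hg38, removed duplicates with Samtools and called peaks with MACS2 at a q-value threshold of 0.05. The pileup deposited for each peak is a signal, namely fragment coverage of the ChIP library at its summit. The deposited fold enrichment is a ratio of pileup to local background, each increased by 1. Values of -log10 p and -log10 q deposited with each peak refer to the summit. Read totals are not in the table, so the depth is unknown here. The background rate follows from pileup and fold enrichment by inverting that ratio. Poisson p-values computed with it differed from the deposited values by at most 0.00013% at the member peaks.

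Of 1706 gene symbols in the table, 1547 were matched to GENCODE v44 by name, identifier or RefSeq synonym, and 1 family pseudogene symbol, MRPS31P4, was left out. Distances were taken to the GENCODE gene start, and the canonical transcript start is given beside it. Neighbouring starts were searched among protein-coding genes with a symbol, so genes known by identifier only were left out. Word searches and the background rate were tested on simulated data. Every member was named, with family genes whose start lay within 5000 bp of a summit and all listed pathway genes with an entry. Members, lists and the word CACGTG were chosen with earlier results of these data known. The words CCGGAAG and GCGCATGC and the canonical starts of neighbours were added after the peaks were seen. Alternatives covered thresholds, definitions of a peak at a gene, gene starts and windows. Python 3.11.15, numpy 2.4.6, pandas 2.3.3, scipy 1.17.1, numba 0.67.0 and matplotlib 3.10.9 were used.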

Additional observations from a re-analysis of the deposited data

How the results depend on the processing

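There was no replicate, so no replicate could be left out. For 8 results there were 37 values under other settings. Of these, 26 stayed within 1.5 times the count or distance, or within the counting interval, and 11 moved. The 7 family genes with an entry fell to 4 with a pileup of at least 10, which removed MRPL18, MRPS16 and MRPS27, and to 2 with promoter entries only. With a q-value under 0.001 or a fold enrichment of at least 5, MRPL18 and MRPS16 were lost and 5 genes were left. The 2 genes with a promoter entry became 1, MRPL20, with a q-value under 0.001, a pileup of at least 10 or a fold enrichment of at least 5. The median distance from summit to gene start, 198 bp, was 125 bp to the nearest annotated transcript start. The 2 peaks with CACGTG became 1, at MRPL3, with a q-value under 0.001. The 1 peak with GGGGCGGGG became 4 with the shorter GGGCGG. The 1 peak with a shared promoter became 3 when promoter entries of any gene were counted, 2 with canonical starts, and 0 with a distance of 500 bp. The changes under stricter q-value, pileup or fold enrichment follow from the low values of the peaks lost. The other changes follow from the wider or narrower definitions. A pileup of 9 fragments has an interval from 4.12 to 17.1, so a family promoter with a smaller signal could go unlisted.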
